A study of Mus musculus with 10 samples.

Results

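The 36 genes described here carry out mitochondrial fatty acid oxidation and the tricarboxylic acid (TCA) cycle, and they were followed in mouse melanoma tumours from exercised and non-exercised animals. They were listed by function: 17 genes of beta-oxidation and its electron transfer chain, 16 of the pyruvate dehydrogenase complex and the TCA cycle, and the 3 regulators Ppara, Ppargc1a and Ppargc1b. A gene was counted as measured where a probe set carried its symbol alone, and all 36 were measured, out of 19938 genes on the arrays. The tumours came from male mice, 5 labelled Exercise (300, 301, 306, 309 and 310) and 5 labelled non-Exercise (326, 327, 329, 330 and 331), with 1 Affymetrix whole-transcript array each. The title speaks of voluntary exercise, and the sources used here give no strain, age, melanoma line, running distance or time of tumour collection. RNA was prepared with either of 2 column kits, and the labels do not say which kit served which tumour. The labels do not state that each number is its own mouse, and the p-values below therefore reflect only how these tumours varied.

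Levels are log2 values after quantile normalization, and each change is the Exercise mean less the non-Exercise mean, given with its standard error (SE). A gene was called where limma's adjusted p over all 19938 genes was under 0.05. The melanoma label was borne out by the 11 melanocytic markers, which lay between 11.61 and 13.69 in the Exercise arrays and between 11.88 and 13.65 in the non-Exercise arrays. None of the 11 was called in either direction with all arrays. Without Exercise arrays 306, 309 and 310, 2 of the 11 were lower, where 8.08% of all genes were. Whole-tumour RNA holds every cell of the tumour, and fewer cells of a type and less RNA per cell cannot be told apart. Precision is limited by having 5 arrays a group.

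Long-chain fatty acids enter mitochondria as carnitine esters. Cpt1a, on the outer membrane, makes the ester, the carrier Slc25a20 takes it across the inner membrane, and Cpt2 turns it back into an acyl-CoA. Each turn of beta-oxidation then removes an acetyl unit by dehydrogenation, hydration, a further dehydrogenation and thiolysis, with electrons passed on through the electron transfer flavoprotein. Pyruvate dehydrogenase makes acetyl-CoA from pyruvate, and the TCA cycle oxidises acetyl-CoA from both sources. Ppargc1a encodes PGC-1alpha, a coactivator of mitochondrial genes that a subset of human melanomas expresses under the melanocyte factor MITF.

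Most of these genes differed little between the groups. Of 36 members 5 were lower in Exercise tumours, 1 was higher and 30 were not called. Over all genes 10.6% were lower and 6.35% higher by the same rule, against 13.9% and 2.78% of the members, so the share of called members was near the background. The lower genes were Slc25a20, Hadha, Acads, Eci1 and Cs, 4 from fatty acid oxidation and 1 from the TCA cycle, and the higher gene was Ppargc1a. The median change of the members was -0.11 on the log2 scale, against -0.024 for all genes. Changes were negative for 31 of 36 members (86.1%) and for 57.1% of all genes. The 30 genes that were not called had changes between -0.18 and 0.14, and all 30 of their 95% intervals lay within -0.37 and 0.30. The members were chosen with earlier results of these data known, so no p was computed over the list.

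**Figure D1:**
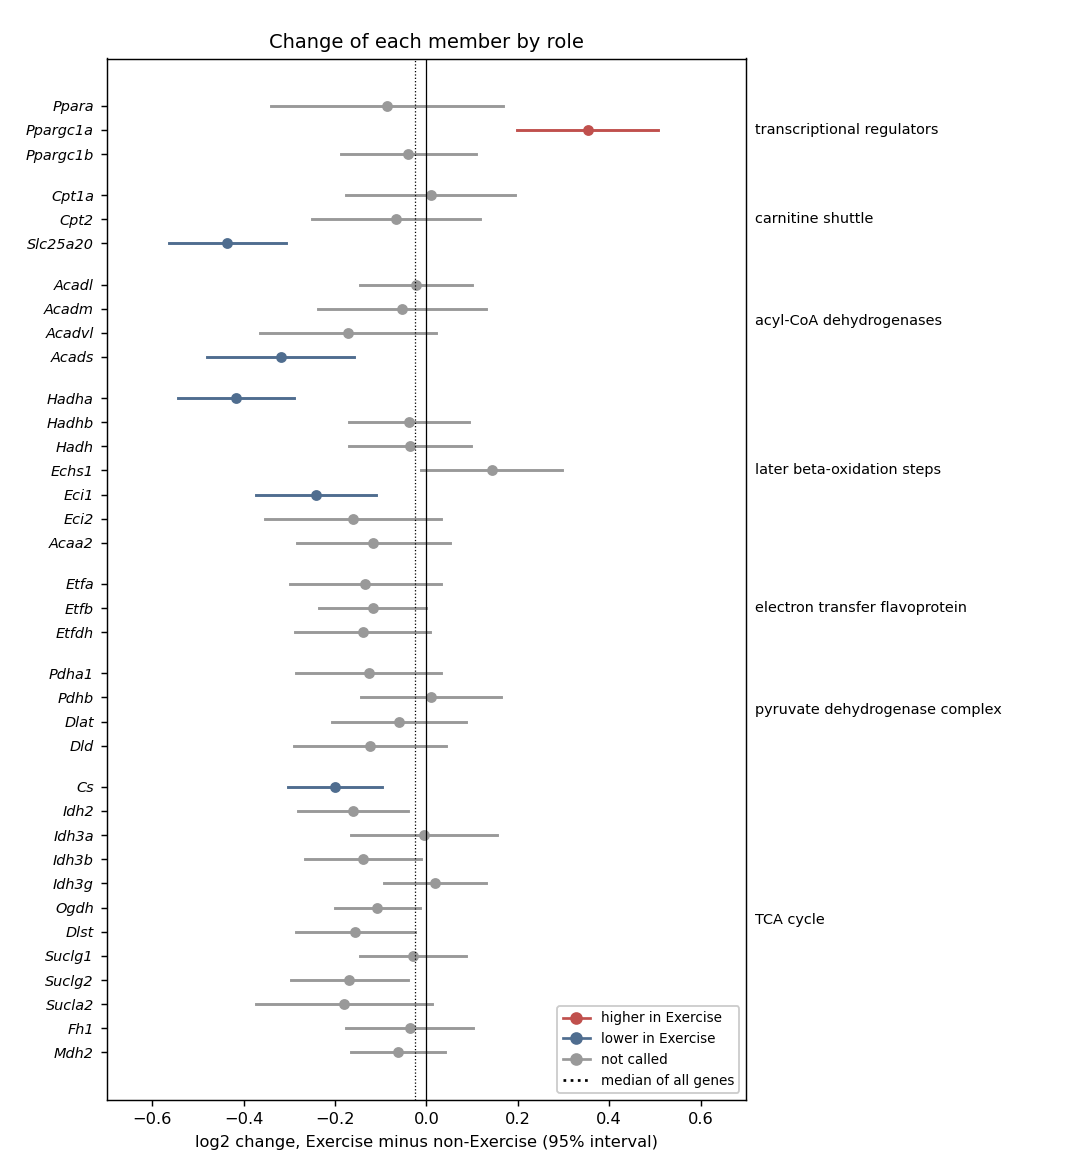
Log2 change of the 36 members, Exercise minus non-Exercise, by role, with 95% intervals from limma (5 arrays per group). Red marks the gene that was higher in Exercise tumours (Ppargc1a), blue the 5 that were lower and grey the 30 that were not called, and the dotted line is the median of all genes at -0.024.

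Among the 3 genes of the carnitine shuttle, only the inner membrane carrier was called (33.3% lower, against 10.6% of all genes). Slc25a20 lay at 10.16, 10.20, 10.21, 10.33 and 10.11 in the Exercise arrays, against 10.62, 10.70, 10.64, 10.68 and 10.54 in the non-Exercise arrays. All 5 Exercise arrays were below all non-Exercise arrays. The means were 10.20 ± 0.08 and 10.64 ± 0.06 (SD, n = 5 each), a change of -0.44 ± 0.06 (1.35-fold lower, limma adjusted p = 0.000373), the largest decrease of any member. Cpt1a, the rate-limiting enzyme of the shuttle, lay at 11.30, 11.12, 11.22, 11.46 and 11.41 in the Exercise arrays, against 11.28, 11.55, 11.32, 11.27 and 11.05 in the non-Exercise arrays. The groups overlapped throughout, and the change was 0.0094 with a 95% interval of -0.17 to 0.19. Its sign turned with the scaling, at -0.018 in the deposited table and -0.078 with arrays centred on their medians. Cpt2 had a change of -0.066 (95% interval -0.25 to 0.12).

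The promoter of Slc25a20 is shown because this gene had the largest decrease, and because its window was the only one among the 6 called genes that held any of 3 motifs searched on both strands. These were TCAAGGTCA, bound by estrogen-related receptors, GCGCATGCG, bound by NRF1, and CCGGAAGT, bound by GABPA. The window holds the 300 bases around the RefSeq start, most of them upstream, at chr9:108661886-108662185 (GRCm38.p6, plus strand), and capitals mark the GABPA motif.
Slc25a20: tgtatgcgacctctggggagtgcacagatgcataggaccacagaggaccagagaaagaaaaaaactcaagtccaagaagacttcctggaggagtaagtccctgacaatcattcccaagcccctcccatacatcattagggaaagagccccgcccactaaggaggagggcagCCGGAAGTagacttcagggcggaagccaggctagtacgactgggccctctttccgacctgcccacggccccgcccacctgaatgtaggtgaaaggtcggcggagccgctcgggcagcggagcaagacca
Of 36 members 33 had 38 such windows, and CCGGAAGT was in 7.89% of them (those of Cpt2, Slc25a20 and Dlst) and in 3.89% of all 32851 windows. GCGCATGCG was in 13.2% of the members' windows (Ppara, Acadm, Etfdh and Ogdh) and in 1.75% of all. Ogdh had 6 of the 38 windows, and overlapping ones held the same copy of this motif. The 5 windows with it thus came from 4 genes. TCAAGGTCA was in 0 of the 38 and in 0.423% of all. No member's window held 2 of these motifs, and a match is a description of the letters, not a bound site.

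The 4 acyl-CoA dehydrogenases, which take fatty acids of different chain length, all had negative changes. Of these 1 was called lower (25%, against 10.6% of all genes). Acads, for short chains, lay at 10.78, 10.93, 11.06, 11.03 and 10.71 in the Exercise arrays, against 11.27, 11.22, 11.26, 11.30 and 11.05 in the non-Exercise arrays. The groups met only at Exercise array 306 and non-Exercise array 331. The means were 10.90 ± 0.15 and 11.22 ± 0.10 (SD, n = 5 each), a change of -0.32 ± 0.08 (limma adjusted p = 0.0100). Acadvl, for very long chains, had a change of -0.17 (95% interval -0.36 to 0.021). Acadm, for medium chains, stood at -0.054 and Acadl, for long chains, at -0.023, with intervals of -0.24 to 0.13 and -0.14 to 0.1.

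Hadha and Hadhb encode the alpha and beta subunits of the mitochondrial trifunctional protein, which carries out the last 3 steps of beta-oxidation of long chains. Hadha lay at 11.68, 11.60, 11.68, 11.64 and 11.68 in the Exercise arrays, against 12.15, 12.21, 12.09, 12.06 and 11.86 in the non-Exercise arrays. All Exercise arrays were lower than every non-Exercise array, and non-Exercise array 331 was the nearest. The means were 11.66 ± 0.04 and 12.07 ± 0.13 (SD, n = 5 each), a change of -0.42 ± 0.06 (1.33-fold lower, limma adjusted p = 0.000486). Hadhb, the partner subunit, lay at 10.89, 10.77, 10.82, 10.70 and 10.86 in the Exercise arrays, against 10.83, 11.00, 10.87, 10.77 and 10.76 in the non-Exercise arrays. The groups overlapped, with a change of -0.038 and a 95% interval of -0.17 to 0.093. A second probe set with the symbol Hadhb had a change of -0.037 (limma adjusted p = 0.787 over all probe sets). Whether it lies at the gene itself was not checked.

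The difference between the subunits was described within arrays, a pair chosen after its values were seen and therefore without a test. Hadha minus Hadhb was 0.79, 0.83, 0.86, 0.94 and 0.82 in the Exercise arrays, against 1.32, 1.21, 1.22, 1.29 and 1.10 in the non-Exercise arrays. The highest Exercise array was below the lowest non-Exercise array. The means were 0.85 ± 0.06 and 1.23 ± 0.09 (SD, n = 5 each), a shift of -0.38, and -0.39 in the deposited table. Such a difference shows unequal change of the 2 transcripts and not that either was constant.

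**Figure D2:**
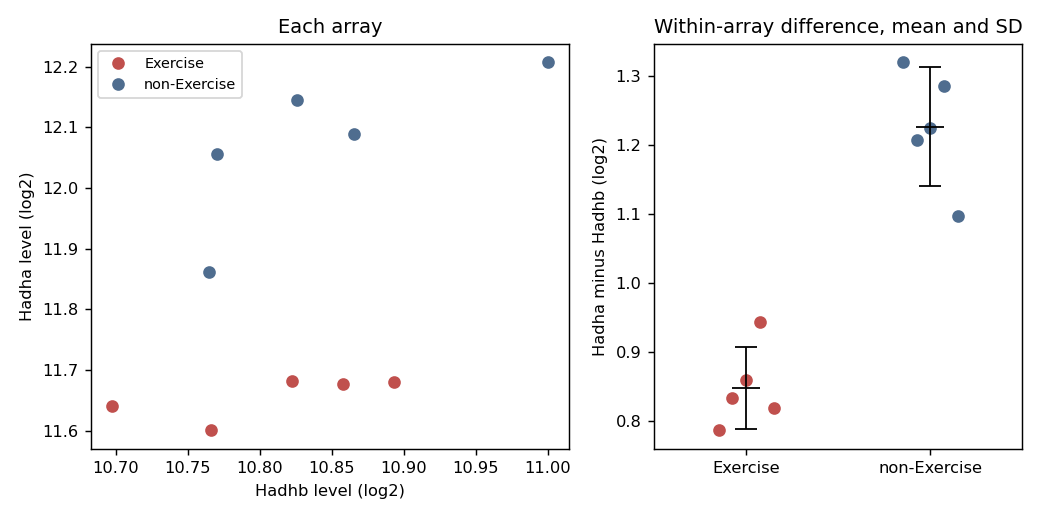
Left, log2 level of Hadha against Hadhb in each of the 10 arrays; right, Hadha minus Hadhb within each array by group, with mean and SD. At like levels of Hadhb the Exercise arrays had less Hadha, and the within-array difference was 0.79 to 0.94 in Exercise and 1.10 to 1.32 in non-Exercise arrays.

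The start regions of this pair are shown because the genes face away from each other and their windows overlap. The RefSeq windows lie at chr5:30154931-30155230 on the minus strand for Hadha and at chr5:30155003-30155302 on the plus strand for Hadhb (GRCm38.p6). Each has 300 bases, and capitals mark the 228 bases that the 2 windows have in common, read on opposite strands.
Hadha: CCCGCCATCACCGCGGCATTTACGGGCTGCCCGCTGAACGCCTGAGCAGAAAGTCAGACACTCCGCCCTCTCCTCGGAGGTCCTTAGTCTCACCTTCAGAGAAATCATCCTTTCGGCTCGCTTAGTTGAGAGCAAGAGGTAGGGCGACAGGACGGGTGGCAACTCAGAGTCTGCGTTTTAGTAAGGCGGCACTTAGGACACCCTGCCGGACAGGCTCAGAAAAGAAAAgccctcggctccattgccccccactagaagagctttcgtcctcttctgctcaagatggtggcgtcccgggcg
Hadhb: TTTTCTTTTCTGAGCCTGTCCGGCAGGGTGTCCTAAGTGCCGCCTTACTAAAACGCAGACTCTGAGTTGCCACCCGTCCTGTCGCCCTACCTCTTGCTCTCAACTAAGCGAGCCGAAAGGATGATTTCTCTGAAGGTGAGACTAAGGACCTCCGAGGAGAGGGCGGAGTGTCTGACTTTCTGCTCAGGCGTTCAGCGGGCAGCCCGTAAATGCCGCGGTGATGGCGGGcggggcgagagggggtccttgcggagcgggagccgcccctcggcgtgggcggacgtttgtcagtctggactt
Neither window held any of the 3 motifs. The shared bases lie upstream of both RefSeq starts, and the changes of the 2 transcripts were -0.42 for Hadha and -0.038 for Hadhb.

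Of the 7 genes of the later steps 2 were lower (28.6%, against 10.6% of all genes), Hadha and Eci1. Eci1, an isomerase needed for unsaturated fatty acids, was the called gene among the other 5. It lay at 11.16, 11.27, 11.44, 11.43 and 11.24 in the Exercise arrays, against 11.60, 11.55, 11.51, 11.63 and 11.47 in the non-Exercise arrays. The Exercise arrays were all lower, by a small margin at arrays 306 and 309. The change was -0.24 ± 0.06 (limma adjusted p = 0.0150). The related isomerase Eci2 had a change of -0.16 (95% interval -0.35 to 0.032), and the thiolase Acaa2 one of -0.12 (95% interval -0.28 to 0.052). Hadh, the hydroxyacyl-CoA dehydrogenase for shorter chains, stood at -0.036. Echs1, the short-chain hydratase, was the only gene of beta-oxidation besides Cpt1a with a positive change, 0.14 with a 95% interval of -0.012 to 0.30. The electron transfer flavoprotein subunits Etfa and Etfb and its dehydrogenase Etfdh had changes of -0.13, -0.12 and -0.14, and none was called.

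**Figure D3:**
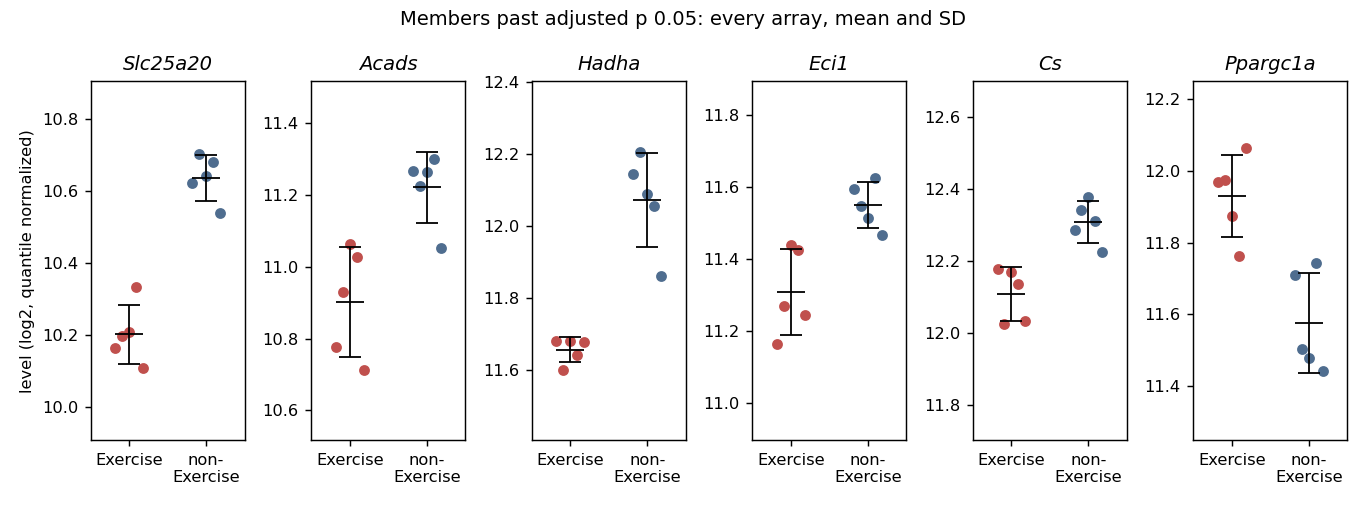
Log2 levels of the 6 called members in every array, with mean and SD, Exercise left and non-Exercise right in each panel; each vertical axis spans 1 log2 unit and does not start at 0. The groups were fully apart for every gene shown but Acads, where Exercise array 306 (11.06) and non-Exercise array 331 (11.05) met.

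The pyruvate dehydrogenase complex had no called subunit. Pdha1, which encodes the catalytic E1 alpha subunit, lay at 10.66, 10.49, 10.44, 10.51 and 10.27 in the Exercise arrays, against 10.59, 10.70, 10.64, 10.62 and 10.44 in the non-Exercise arrays. The ranges overlapped, with the lowest value in Exercise array 310 and a change of -0.13 (95% interval -0.28 to 0.032). Pdhb, its E1 partner, had a change of 0.011, the E2 acetyltransferase Dlat one of -0.06 and Dld, the E3 subunit shared with 2-oxoglutarate dehydrogenase, one of -0.12.

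Of the 12 TCA cycle genes 1 was lower (8.33%, against 10.6% of all genes) and 11 were not called. The median change was -0.12, against -0.024 for all genes. Cs, citrate synthase, which joins acetyl-CoA to oxaloacetate, lay at 12.18, 12.02, 12.17, 12.14 and 12.03 in the Exercise arrays, against 12.29, 12.34, 12.38, 12.31 and 12.22 in the non-Exercise arrays. The groups did not overlap, but the change was small, -0.20 ± 0.05 (1.15-fold lower, limma adjusted p = 0.0111). Idh2, the NADP-dependent mitochondrial isocitrate dehydrogenase, lay at 12.68, 12.62, 12.81, 12.72 and 12.54 in the Exercise arrays, against 12.83, 12.89, 12.89, 12.88 and 12.68 in the non-Exercise arrays. Only non-Exercise array 331 fell among the Exercise values, and the change of -0.16 ± 0.06 did not pass (limma adjusted p = 0.0655). The NAD-dependent isocitrate dehydrogenase subunits had changes of -0.0049 (Idh3a), -0.14 (Idh3b) and 0.019 (Idh3g).

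Further round the cycle, Ogdh and Dlst, the E1 and E2 subunits of 2-oxoglutarate dehydrogenase, had changes of -0.11 and -0.16 (limma adjusted p = 0.114 and 0.0984). The succinyl-CoA ligase subunits stood at -0.029 for Suclg1, -0.17 for Suclg2 and -0.18 for Sucla2. Suclg2, the GTP-forming subunit, had 2 probe sets on different sides of the threshold. The brighter stood at -0.17 (limma adjusted p = 0.0700 over all probe sets) and the other at -0.21 (0.0303). Its place among the genes not called thus rested on the choice of probe set. With probe sets averaged Suclg2 was called, and 6 members and 2114 of all genes were lower. Whether both probe sets lie at the gene itself was not checked. Fh1, fumarase, and Mdh2, mitochondrial malate dehydrogenase, stood at -0.036 and -0.062. With the brighter probe set standing for each gene, the fold of Cs was the largest of the 12. The other Suclg2 probe set, at -0.21, was slightly past it.

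Ppargc1a was the only member with a called increase. It lay at 11.97, 11.97, 11.87, 11.76 and 12.06 in the Exercise arrays, against 11.71, 11.50, 11.48, 11.74 and 11.44 in the non-Exercise arrays. All Exercise arrays were above all non-Exercise arrays, with Exercise array 309 just over non-Exercise array 330. The means were 11.93 ± 0.11 and 11.58 ± 0.14 (SD, n = 5 each), a change of 0.35 ± 0.07 (1.28-fold higher, limma adjusted p = 0.00450). Its second probe set had a change of 0.38 that did not pass (limma adjusted p = 0.0656 over all probe sets). Ppargc1b, the related coactivator PGC-1beta, lay at 9.27, 9.27, 9.47, 9.50 and 9.32 in the Exercise arrays, against 9.44, 9.41, 9.38, 9.44 and 9.37 in the non-Exercise arrays, with a change of -0.04. Its Exercise values lay on either side of the non-Exercise ones. Ppara, the nuclear receptor that drives fatty acid oxidation in liver and muscle, lay at 7.79, 7.63, 7.69, 7.95 and 7.87 in the Exercise arrays, against 8.22, 7.89, 7.64, 8.01 and 7.60 in the non-Exercise arrays. The spread within the non-Exercise group covered every Exercise value, and the change was -0.085 (95% interval -0.34 to 0.17).

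Values without overlap between the groups were counted for all members. All Exercise arrays lay below all non-Exercise arrays for 4 members (Slc25a20, Hadha, Eci1 and Cs), as for 8.33% of all genes, and above for 1 (Ppargc1a), as for 3.74% of all genes. The lowest array of a gene was an Exercise array for 28 members and a non-Exercise array for 8. Such counts of lowest and highest arrays were not made over all genes, of which 57.1% had negative changes. They are therefore not read as a trait of the members. Exercise array 310 was lowest for 13 members and Exercise array 309 for 7. Non-Exercise array 331 was also lowest for 7 and highest for 0, while array 327 of the same group was highest for 11. The mean level of the 36 genes, each centred on its mean over 10 arrays, was -0.019, -0.092, -0.0072, -0.021 and -0.11 in the Exercise arrays, against 0.066, 0.11, 0.088, 0.062 and -0.077 in the non-Exercise arrays. Non-Exercise array 331 thus lay with the Exercise arrays. Without it 8 members were lower, Idh2, Idh3b and Suclg2 besides the 5, while over all genes 2334 were lower, against 2118 with all arrays. The cause of its low values was not tested.

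**Figure D4:**
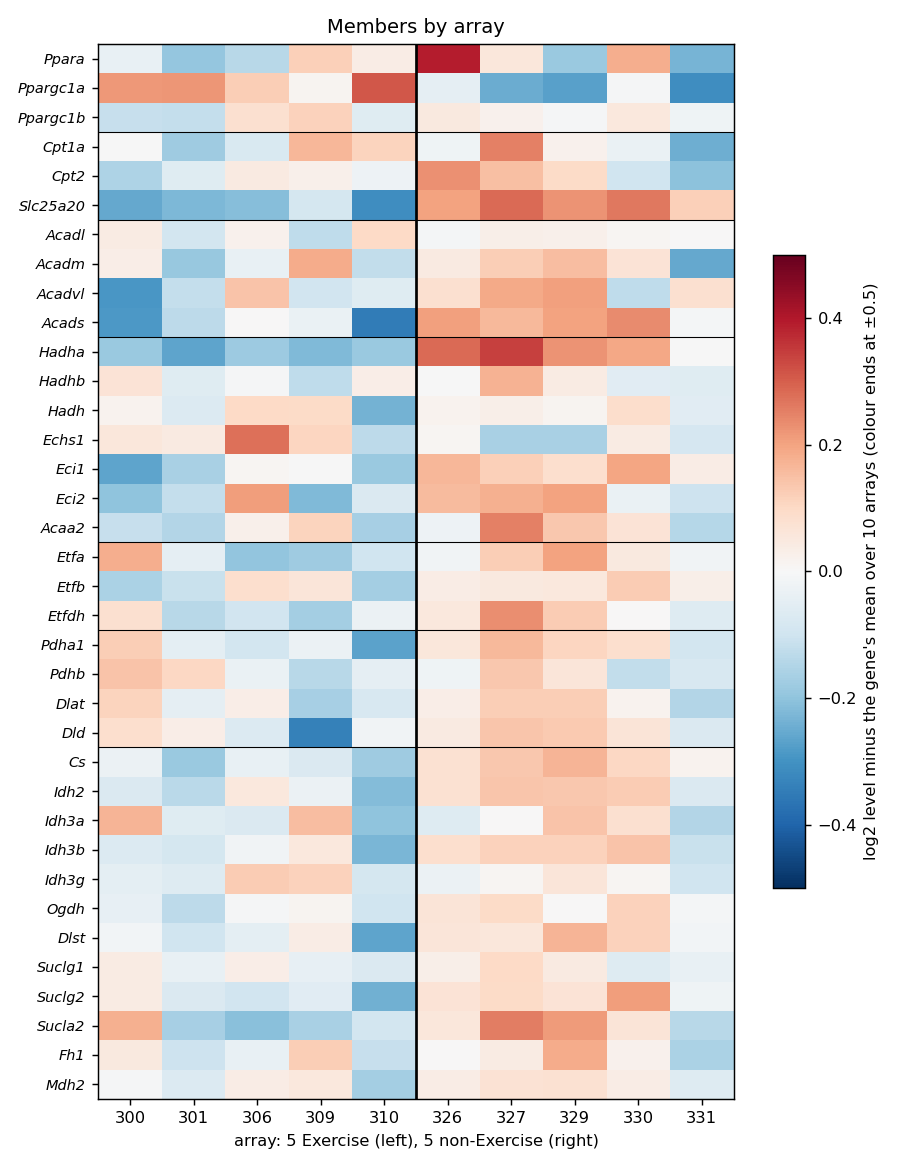
Log2 level of each member in each array minus the gene's mean over 10 arrays, with Exercise arrays left of the line and non-Exercise arrays right; horizontal lines separate the roles. Slc25a20 and Hadha are low across the Exercise arrays, Ppargc1a is high there, and non-Exercise array 331 is pale or blue for most genes.

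The count of lower members rested on the scaling between arrays. With arrays centred on their medians 11 members were lower, adding Etfb, Idh2, Idh3b, Ogdh, Dlst and Suclg2, and then 3076 of all genes were lower, against 2118 after quantile normalization. In the same setting 938 genes were higher, against 1266. The 6 members called after quantile normalization were called in each of the 19 other settings.

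Other genes of fatty acid and acetyl-CoA metabolism were counted from 6 lists of 77 genes, of which 67 were measured. Of these 12 were lower (17.9%), 3 were higher (4.48%) and 52 were not called, with a median change of -0.077. By the same rule 10.6% of all genes were lower and 6.35% higher, with a median change of -0.024. No p was computed over these lists. The list drawn up for other mitochondrial fatty acid enzymes held the most decreases, 5 of 12 (41.7%). Where in the cell each enzyme of this list works was not checked. Acad11, an acyl-CoA dehydrogenase, had a change of -0.41 ± 0.07 (limma adjusted p = 0.00171), Pccb, a subunit of propionyl-CoA carboxylase, one of -0.44 ± 0.07 (0.000919), and Acad8, the isobutyryl-CoA dehydrogenase of valine breakdown, one of -0.38 ± 0.08 (0.00538). Acot13 (-0.30) and Acad10 (-0.45) were the other decreases. Acot2, a mitochondrial acyl-CoA thioesterase, was the increase of this list at 0.30 ± 0.08 (limma adjusted p = 0.0226).

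Of 12 peroxisomal genes 2 were lower (16.7%, against 10.6% of all genes). They were Decr2, a peroxisomal dienoyl-CoA reductase (-0.35), and Amacr, the racemase of branched-chain substrates (-0.32). Of 13 genes of uptake and activation 2 rose and 2 fell (15.4% each), against 6.35% and 10.6% of all genes. Cd36, a fatty acid translocase, had a change of 0.84 ± 0.27 (limma adjusted p = 0.0437), with 11.72, 10.47, 10.34, 11.16 and 11.79 in the Exercise arrays, against 9.69, 10.63, 10.61, 10.12 and 10.23 in the non-Exercise arrays. Its Exercise values were uneven, and those of arrays 301 and 306 lay within the non-Exercise range. Slc27a1, a fatty acid transporter, rose by 0.36 ± 0.10 (limma adjusted p = 0.0239). The carnitine transporter Slc22a5 had a change of -0.26 and Cpt1c, the brain-type carnitine palmitoyltransferase, one of -0.27. Leaving out any 1 of 7 arrays ended the call of Cd36 (change 0.67 to 1.03). The same held for any 1 of 8 arrays for Acad10, of 5 for Slc27a1 and Slc22a5, of 3 for Acot2, and for non-Exercise array 326 for Cpt1c.

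Among 16 other regulators 2 were lower (12.5%), near the 10.6% of all genes. Ppard, the PPAR of most tissues, had a change of -0.35 ± 0.06 (limma adjusted p = 0.00203), with all Exercise arrays below all non-Exercise arrays. Prkaa2, a catalytic subunit of AMP-activated kinase, had one of -0.26 (limma adjusted p = 0.0441), and lost the call without any 1 of 8 arrays. Of the 7 kinases and phosphatases that switch pyruvate dehydrogenase 1 was lower (14.3%, against 10.6% of all genes). This was the phosphatase Pdp2 (-0.33, limma adjusted p = 0.0283), which lost its call without any 1 of 7 arrays. Pdk4, the kinase that blocks the complex in fasting and exercised muscle, had a change of 0.41 that did not pass (limma adjusted p = 0.314). No gene of the 7 other TCA cycle, pyruvate dehydrogenase and pyruvate carrier genes was called. The increases in the companion lists numbered 0 without non-Exercise array 326 and 6 without Exercise array 301. In these settings 860 and 1529 of all genes were higher.

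Tissues rich in these enzymes could be part of a tumour sample, so markers of 5 other cell types were read beside them. Hepatocyte transcripts stood out in Exercise arrays 306, 309 and 310. The mean centred level of 14 markers was 1.46, 1.56 and 0.94 there, between -0.72 and -0.66 in the other 2 Exercise arrays, and between -0.63 and -0.28 in the non-Exercise arrays. Alb, which encodes albumin, was 12.77, 12.97 and 12.28 in these 3 arrays, 7.05 and 7.47 in the other 2, and 6.84 to 9.22 in the non-Exercise arrays. Skeletal muscle markers ranged from -1.0 to 1.40 in the Exercise arrays and from -0.62 to 0.17 in the non-Exercise arrays, with 0 of 14 called. Adipocyte markers ranged from -0.55 to 0.96 and from -0.50 to 0.35, with 1 of 10 called. Macrophage markers were higher in Exercise tumours for 8 of 10, where 6.35% of all genes were. Their centred levels ran from -0.12 to 1.01 against -0.82 to -0.26. Keratinocyte markers were called for 0 of 9. The markers with the widest range over arrays were Alb and Ttr (hepatocyte), Myh4 and Myl1 (muscle), Retn and Adipoq (adipocyte), Itgam and Fcgr1 (macrophage), Dsg3 and Krt1 (keratinocyte), and Trpm1 and Oca2 (melanocytic). Cd36 is also made by macrophages and adipocytes, and its highest Exercise arrays, 310 and 300, were also the highest for the adipocyte markers. The macrophage markers were highest in Exercise array 310 too (1.01), followed by 309 (0.81) and 300 (0.52). The part of any of these cell types in the values of the members or of Cd36 was not tested.

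Without Exercise arrays 306, 309 and 310, which leaves 2 Exercise arrays, the 6 member calls were as large. Slc25a20 stood at -0.46, Hadha at -0.43, Acads at -0.37, Eci1 at -0.34, Cs at -0.21 and Ppargc1a at 0.40. Etfb was called in addition (-0.19, limma adjusted p = 0.0244). That made 6 lower and 1 higher member, where 8.08% of all genes were lower and 3.76% higher in this setting. Among the markers 6 of 10 macrophage ones were still higher, and 2 melanocytic, 1 hepatocyte and 1 adipocyte marker were lower. Of the companion genes 13 were then lower and 1, Acot2, was higher. Cd36 (0.85), Slc27a1 (0.23), Acad8 (-0.32), Acot13 (-0.25) and Prkaa2 (-0.12) did not pass. In turn 4 genes passed that had not with all arrays. Pdk2, a pyruvate dehydrogenase kinase, stood at -0.67 (limma adjusted p = 0.0149), against -0.36 with all arrays, and Pcx, pyruvate carboxylase, at -0.51 (0.0131), against -0.28. The fatty acid transporter Slc27a4 stood at -0.41 and Acadsb, the dehydrogenase of short branched chains, at -0.42, against -0.29 and -0.32 with all arrays.

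**Figure D5:**
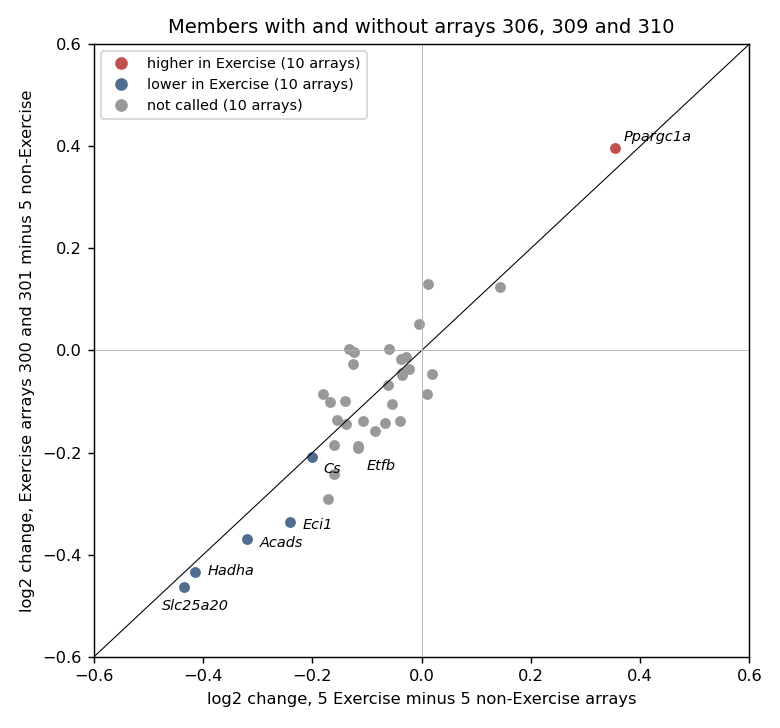
Log2 change of each member with all 10 arrays (horizontal axis) and without Exercise arrays 306, 309 and 310 (vertical axis); the line marks equal changes, and colours give the call with 10 arrays. The 6 called genes lie near the line, from Slc25a20 at -0.44 and -0.46 to Ppargc1a at 0.35 and 0.40.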

How the data were processed

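The authors deposited 1 table of log2 values per probe set, summarised with PLIER per the submitters' processing notes. Its values lie between 4.66 and 14.55, which is why they were taken as log2. The sources used here give neither the log base, nor any added constant (which would shrink changes of dim genes), nor a between-array step. Scan dates were not used, and no batch was tested. Array medians ranged from 8.64 to 8.77, and quantile normalization was applied (limma 3.58.1, R 4.3.3). Of 35556 probe sets 21789 had 1 symbol, 1621 had several and 12146 were not listed. Names were matched to RefSeq of GRCm38.p6, which also gave the promoter sequences. The brightest probe set stood for each of the 999 genes with several.

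The 5 Exercise and 5 non-Exercise arrays were compared by limma (lmFit, then eBayes allowing an intensity trend; two-sided tests), with Benjamini-Hochberg adjustment over 19938 genes. Intervals are limma's 95% intervals of the change. Members and lists were chosen with earlier results of these data known. Every called member and 7 fixed members are given by array, with up to 3 called genes for each companion list; the others named there were chosen after their values were seen. Alternatives were 2 other scalings, the mean of probe sets, a filter at the 20th percentile of mean level, 2 variance models, array weights, a threshold of 0.10, leaving out each array, and leaving out 3 Exercise arrays together. Pairs of arrays correlated at 0.976 to 0.990 in the Exercise group, 0.987 to 0.996 in the non-Exercise group and 0.960 to 0.991 across groups, and no pair was a copy. The code was tested on simulated data. Figures used Python 3.11.15 and matplotlib 3.10.9.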

Additional observations from a re-analysis of the deposited data

Results flagged for a closer look

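Of 102 groups of 5 arrays looked at (36 members and 15 called companion genes), 9 had 1 array far from the other 4, a gap above 0.71 of the group's whole range; chance gives about 1 in 20. Non-Exercise array 331 was the low one for 8 of the 9. Among members it lay at 10.69 for Acadm (next array 10.99), 12.68 for Idh2 (12.83), 12.55 for Idh3b (12.74) and 13.00 for Mdh2 (13.10). Among companion genes it lay at 8.93 for Pdp2 (9.25), 10.28 for Amacr, 10.30 for Acad8 (10.62) and 10.86 for Acot13 (11.08). For Etfb, non-Exercise array 330 was high at 12.74 (12.66). The cause was not tested.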

How the results depend on the processing

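No paired analysis was possible because the groups share no replicate numbers. The 6 member calls held in all 19 settings, though the threshold of 0.10 could not have ended any. The highest limma adjusted p was 0.0439 for Eci1, 0.0419 for Cs and 0.0310 for Acads. The count of 5 lower members was 11 with arrays centred on their medians and 8 at a threshold of 0.10. With 1 array left out it was 5 to 8. Among all genes 2118 were lower in the main fit, and 3076, 2837 and 1435 to 2334 in these settings. The count of 1 higher member was 1 in every setting. The 12 lower companion genes numbered 7 to 13 and the 3 higher ones 0 to 6 with 1 array left out. The extremes came on leaving out non-Exercise array 326 (7 and 0) and Exercise array 301 (6 higher), and leaving out Exercise 309, non-Exercise 329 or non-Exercise 330 gave 1 higher. After median centring 17 were lower and 0 higher, and at a threshold of 0.10 16 and 5. With array weights there were 18 and 2, and without the 3 Exercise arrays 13 and 1. In the same order all genes gave 3076 and 938, 2837 and 1764, 2803 and 1439, and 1610 and 750. Signs turned for 11 members, none of which was called; the largest of their changes with all arrays was that of Etfa (-0.13). Cpt1a was -0.018 in the deposited table, -0.078 after median centring, -0.051 with array weights and -0.086 without the 3 arrays. In the first 2 of these settings Pdhb was -0.0030 and -0.063 and Idh3g -0.00087 and -0.061, and without the 3 arrays Idh3g was -0.047. Without the 3 arrays Etfa (0.0018), Dlat (0.0019) and Idh3a (0.051) were positive. With 1 array left out the changes ran from -0.0502 to 0.074 for Cpt1a, -0.024 to 0.046 for Pdhb, -0.011 to 0.042 for Idh3g, -0.048 to 0.045 for Idh3a, -0.0503 to 0.0058 for Acadl, -0.059 to 0.00086 for Hadhb, -0.065 to 0.019 for Hadh, -0.15 to 0.0024 for Ppara and -0.0804 to 0.0059 for Fh1. The causes were not tested. Pseudocounts were left out, since the deposited values were taken as log2.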
